A study of Homo sapiens with 6 samples.

Results

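The genes described here are the synaptotagmins, SNARE proteins and exocytosis factors of MDA-MB-231, a claudin-low, triple-negative human breast tumour line. Its cells received 50 nM panobinostat, which inhibits most histone deacetylases, or the solvent DMSO. The genes were chosen by symbol. The symbols were SYT or STX with a digit, STXBP, VAMP, SNAP with 2 or 4, RIMS, UNC13, CPLX, SYN1 to SYN3, SV2 and EXOC. Pseudogenes were left out, and this choice was made with earlier results of these data known. The rule found 78 of the 30051 genes with counts, of which 72 are protein-coding and 6 are long non-coding RNAs. Panobinostat cells gave 3 libraries (replicates 1, 2 and 4) and DMSO cells 3 (replicates 1, 2 and 3), each sampled at 24 h, and both groups are the same line in the same serum-containing medium. RNA was sequenced as stranded mRNA libraries. The repeats are described as independent, but separate cultures are not named, so the p-values measure the spread between these libraries, which may be technical. Total counts were 5389638 to 15106148 in panobinostat and 6514568 to 11996519 in DMSO. Levels are CPM (counts in each 1000000 of the library) after TMM scaling, given by library in the order of the replicate numbers, and each log2 fold change sets panobinostat over DMSO and is given ± SE.

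Vesicles fuse with a target membrane when SNARE proteins on both sides zip into a bundle of helices. Syntaxins and SNAP25-type proteins stand mostly on the target membrane, VAMPs stand on the vesicle, and Sec1/Munc18 proteins (STXBP genes) hold syntaxins ready. Synaptotagmins are vesicle proteins with C2 domains, several of which sense calcium and trigger fusion, while RIM and UNC13 proteins prime vesicles and complexins hold the partly zipped bundle until calcium arrives. The exocyst is a tethering complex that brings secretory vesicles to the plasma membrane in every cell type. Many of these paralogues are best known from neurons and neuroendocrine cells, and others from the granules of cytotoxic lymphocytes or from endosomes.

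SYT11, RIMS3 and SYT7, which are best known from neurons and lay at or under 2 CPM in every DMSO library, rose most, by 28.2-fold, 26.3-fold and 23.2-fold. VAMP1, also best known from synapses, and EXOC6B, STX12, STX7, STX11 and CPLX1 rose by 2.11-fold to 3.40-fold, while RIMS2, UNC13D, STXBP3 and STX1A were among those that fell. Of 51 members that could be tested, 24 rose, 7 fell and 20 were not called (edgeR quasi-likelihood test, Benjamini-Hochberg adjusted p under 0.05). Called genes were thus 60.8% of the members and 58.9% of the 13341 genes tested, which are near each other. Higher calls were 47.1% of the members against 30.2% of all tested genes, and lower calls 13.7% against 28.6%. At least 2-fold rises were 10 of the 51, or 19.6%, against 10.9% of all tested genes, and 0 members fell by 2-fold, against 4.66% of all tested genes, the largest fall being −0.93 ± 0.33 on the log2 scale for SYT9 (edgeR). SYT11, SYT7 and CPLX1 passed the filter on low counts only through panobinostat, and SYT9 only through DMSO, so the filter favoured a difference in these. Among the 47 members that passed it in both groups, 21 rose and 6 fell, where 28.4% of all genes at that level in every library rose and 30.6% fell. The median log2 fold change of the members was 0.14, and that of all tested genes was 0.00. In bulk RNA, more transcripts in each cell and more cells with transcripts cannot be told apart.

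**Figure D1:**
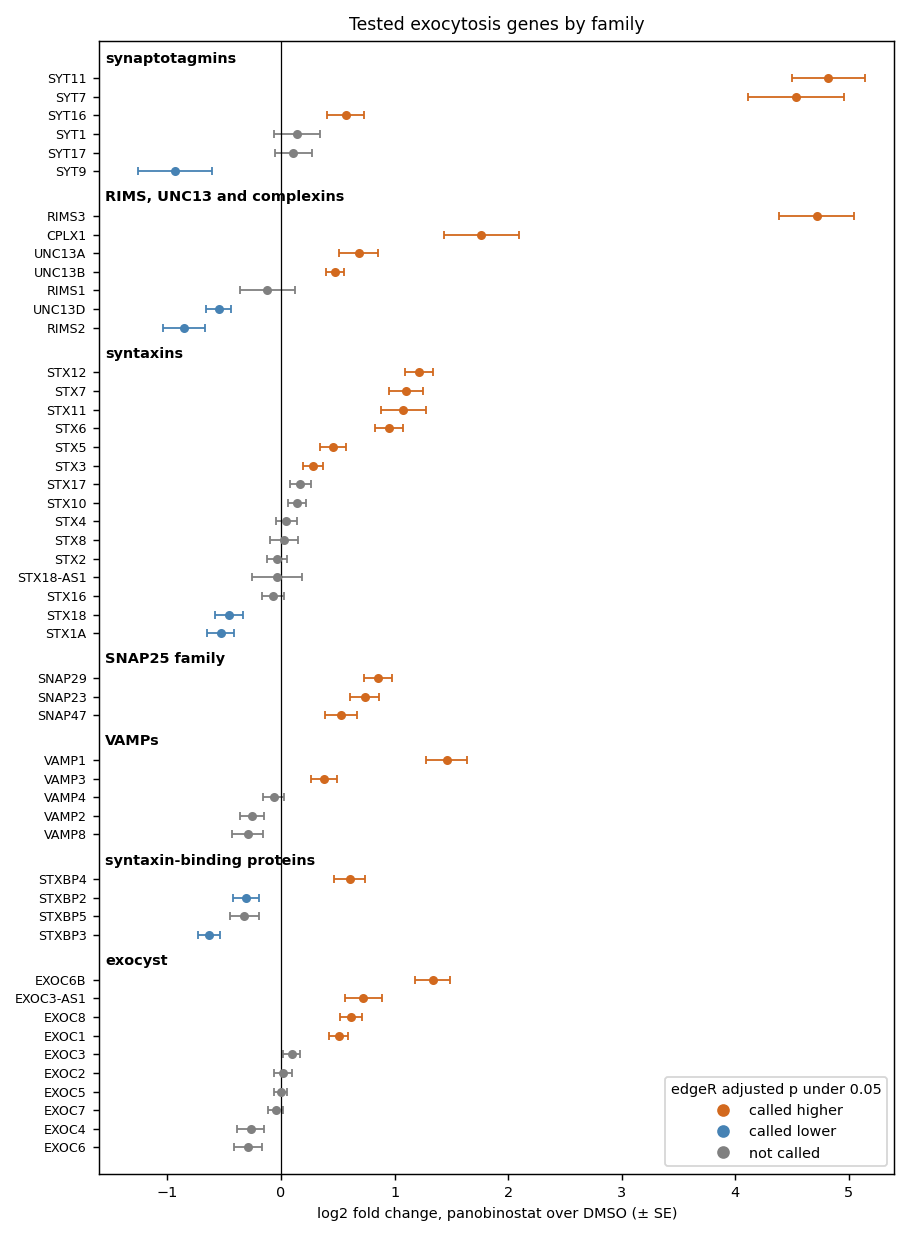
Log2 fold change (panobinostat over DMSO, x axis, ± SE, n = 3 per group) of tested members, ordered within their families. Orange points were called higher, blue lower and grey were not called; SYT11, RIMS3 and SYT7 lie above 4.5 and the others below 2.

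Panobinostat replicate 4 lay nearer to DMSO than its 2 partners. In the 24 members called higher, the median log2 change from the mean DMSO level (with 0.5 CPM added) was 0.90, 0.82 and 0.54 in panobinostat replicates 1, 2 and 4, and replicate 4 was the lowest of the 3 in 22 of them. In the 7 called lower the medians were −0.63, −0.69 and −0.32, and replicate 4 was the highest of the 3 in 6. Even so, the groups did not overlap in any of the 31 called members, nor in 5 of the 20 not called (VAMP2, EXOC6, STXBP5, STX10 and STX17), together 70.6% of those tested against 68.9% of all tested genes. Without replicate 4, 25 members rose and 12 fell, against 37.7% and 37.2% of all tested genes. The marker lists of the line summed to 4346 to 4444 CPM in panobinostat and 4312 to 4351 CPM in DMSO for VIM, CD44, SPARC, FN1, EGFR and ZEB1, with SPARC, a gene listed as present, at only 1.19 ± 0.263 CPM in panobinostat against 1.41 ± 0.730 CPM in DMSO (SD, n = 3 each). These genes did not move together: EGFR (−0.79 ± 0.14) and ZEB1 (−0.91 ± 0.15) fell, VIM (0.16 ± 0.05, called in 9 of 16 settings), most of the sum, and FN1 (0.31 ± 0.07) rose, and CD44 was not called. The sums were 30.4 to 34.4 CPM in panobinostat against 33.2 to 37.6 CPM in DMSO for 7 genes that such a line should express weakly. Here too the genes moved in different ways. CLDN4 rose (1.64 ± 0.29), having passed the filter only through panobinostat, EPCAM fell (−0.77 ± 0.17), and CLDN7 was not called (0.01 ± 0.12). The other 4 were too low to test. Of 13 neuronal and neuroendocrine markers, 7 were in the table, and their sum was 9.45 to 16.6 CPM in panobinostat and 3.40 to 4.39 CPM in DMSO, with SYP the main part and NCAM1 and STMN2 at or near 0. The 2 that could be tested, SYP (2.23 ± 0.30) and TUBB3 (0.86 ± 0.28), were called higher, and 5 were too low to test. Leukocyte markers summed to 3.84 to 5.25 CPM in panobinostat and 2.78 to 4.54 CPM in DMSO, with PTPRC at or near 0. Of these, CD14 rose (2.21 ± 0.36, 3.21, 2.20 and 1.95 CPM in panobinostat against 0.676, 0.426 and 0.464 CPM in DMSO), having passed the filter only through panobinostat, and CSF1R was not called (−0.61 ± 0.38). Endothelial markers summed to 37.2 to 56.6 CPM in panobinostat and 16.1 to 20.4 CPM in DMSO, most of it KDR. Of the 2 that could be tested, 1 was called higher (log2 fold change 1.96) and 1 was not called (−0.58). The part of these markers in the results was not tested.

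Among the synaptotagmins, SYT11 and SYT7 rose more than 20-fold, SYT16 rose mildly, SYT9 fell, and SYT1 and SYT17 were not called. SYT11 encodes a synaptotagmin whose C2 domains do not bind calcium, known from the control of membrane uptake in rodent neurons. Its level was 39.8, 43.9 and 23.7 CPM in panobinostat replicates 1, 2 and 4, against 1.35, 0.852 and 1.55 CPM in DMSO replicates 1, 2 and 3. All panobinostat libraries lay far above all DMSO libraries, with replicate 4 the lowest of the treated (log2 fold change 4.82 ± 0.32, edgeR adjusted p = 0.000573, and 5.02 without panobinostat replicate 4). The gene lies on chromosome 1 from 155859567 to 155885199 of GRCh38.p14. Its promoter, from 250 bases before to 50 after the RefSeq start (chr1:155859317-155859616, plus strand), is shown because it belongs to the largest rise; capitals mark the single match to TGACG, the core of the cyclic AMP response element, read on the opposite strand of the printed sequence, and the window holds 22 CpG dinucleotides.
SYT11: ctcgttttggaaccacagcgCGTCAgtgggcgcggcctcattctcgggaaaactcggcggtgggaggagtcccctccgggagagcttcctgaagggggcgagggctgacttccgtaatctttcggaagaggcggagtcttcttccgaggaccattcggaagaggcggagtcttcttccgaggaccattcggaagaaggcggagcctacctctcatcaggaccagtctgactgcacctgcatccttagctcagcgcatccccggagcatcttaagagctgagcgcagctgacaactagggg
SYT7 encodes a high-affinity calcium sensor, known in rodents from slow release and from lysosome exocytosis. It had 8.12, 10.1 and 4.80 CPM in panobinostat against 0.254, 0.426 and 0.309 CPM in DMSO, from 124, 55 and 32 counts in panobinostat and 3, 3 and 2 counts in DMSO. The treated libraries did not approach the controls, although the DMSO level rests on a few reads (log2 fold change 4.53 ± 0.42, edgeR adjusted p = 0.000592, and 4.74 without panobinostat replicate 4). SYT9, a calcium sensor of synaptic release in mice, went the other way with 0.851, 1.65 and 1.20 CPM in panobinostat against 1.77, 2.55 and 2.32 CPM in DMSO. The groups came close without overlapping (log2 fold change −0.93 ± 0.33, edgeR adjusted p = 0.0379), and the call was lost without panobinostat replicate 1, DMSO replicate 2 or DMSO replicate 3. SYT16, an atypical member, had 10.1, 10.6 and 7.95 CPM in panobinostat against 6.51, 6.39 and 6.50 CPM in DMSO, with a log2 fold change of 0.57 ± 0.16 (edgeR adjusted p = 0.0165), and its call was lost in 5 of the 6 fits that left out 1 library, all but that without panobinostat replicate 4. SYT1, the fast sensor of synaptic release, had 6.29, 5.68 and 8.10 CPM in panobinostat against 6.76, 6.39 and 4.80 CPM in DMSO, with the groups mixed (log2 fold change 0.14 ± 0.21), as did SYT17 (0.11 ± 0.16).

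The make-up of the family differed between the groups. Per kilobase of exon, SYT11 supplied 62.0, 62.4 and 52.2% of the CPM per kb of the 13 synaptotagmins in panobinostat against 8.16, 5.13 and 9.51% in DMSO. SYT1 supplied 7.90, 6.50 and 14.4% in panobinostat against 32.9, 31.0 and 23.8% in DMSO, and SYT17 6.73, 6.15 and 9.42% in panobinostat against 22.0, 23.8 and 27.8% in DMSO. The summed level of the family was 11.5 ± 2.49 CPM per kb in panobinostat and 3.14 ± 0.0346 CPM per kb in DMSO (SD, n = 3 each), so the smaller shares of SYT1 and SYT17 stand beside levels of their own that were not called. Such shares are not independent of each other.

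**Figure D2:**
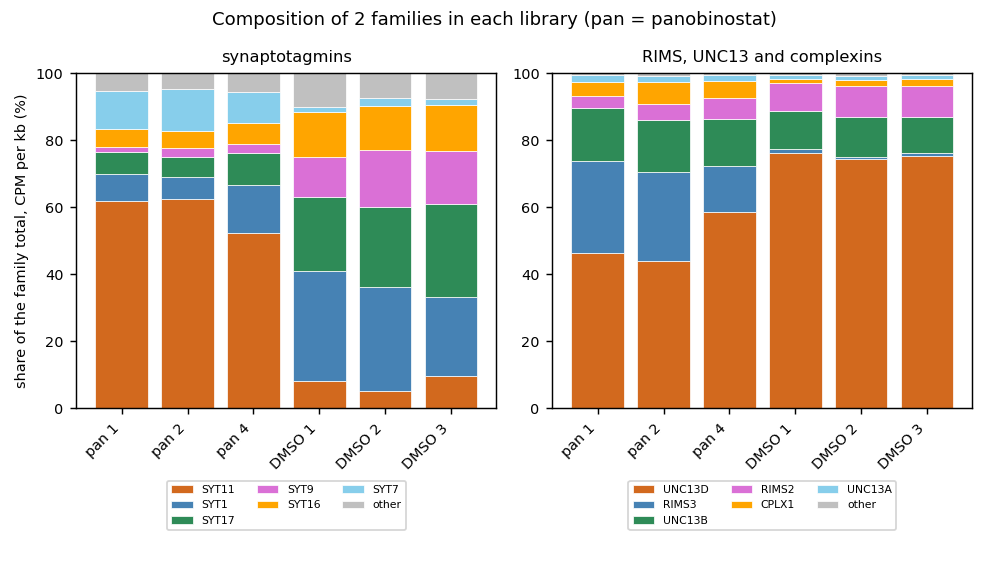
Share of the summed CPM per kb of exon (y axis, percent) that each gene supplied among the synaptotagmins and among the RIMS, UNC13 and complexin genes, for every library, with panobinostat left of DMSO. SYT11 and RIMS3 take larger shares in all 3 panobinostat libraries, least so in replicate 4.

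Among the priming factors, RIMS3 gave the second-largest rise of all members, CPLX1, UNC13A and UNC13B rose, and RIMS2 and UNC13D fell. RIMS3 encodes a short RIM protein that keeps only the carboxy-terminal C2 domain of its larger relatives. It had 57.3, 53.3 and 28.6 CPM in panobinostat and 1.94, 1.56 and 1.70 CPM in DMSO. Replicate 4 was well below the other treated libraries and still lay clear of every DMSO library (log2 fold change 4.71 ± 0.33, edgeR adjusted p = 0.000573, and 4.97 without panobinostat replicate 4). RIMS3 lies on chromosome 1 from 40620680 to 40692066, and the window of its RefSeq start, which falls within that span (chr1:40665633-40665932, minus strand), is shown with its 3 matches to the GC box GGGCGG, all read on the opposite strand, in capitals.
RIMS3: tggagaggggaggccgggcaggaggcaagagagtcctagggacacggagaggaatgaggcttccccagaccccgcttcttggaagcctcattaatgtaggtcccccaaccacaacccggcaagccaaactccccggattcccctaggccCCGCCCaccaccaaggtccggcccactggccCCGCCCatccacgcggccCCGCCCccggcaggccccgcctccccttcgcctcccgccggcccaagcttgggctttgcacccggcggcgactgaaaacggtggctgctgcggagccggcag
RIMS2, the large active zone scaffold of the family, had 14.2, 17.9 and 24.6 CPM in panobinostat against 31.4, 35.1 and 34.5 CPM in DMSO. It fell in every treated library, least in replicate 4 (log2 fold change −0.85 ± 0.19, edgeR adjusted p = 0.00633, and −1.12 without that replicate), while its relative RIMS1, with 2.16, 2.38 and 1.65 CPM in panobinostat against 2.20, 2.55 and 2.01 CPM in DMSO, was not called (−0.12 ± 0.24). The 3 RIM genes thus moved in different ways. CPLX1, a complexin that clamps and then assists synaptic fusion, had 2.88, 4.39 and 3.45 CPM in panobinostat against 0.676, 1.14 and 1.39 CPM in DMSO. Its treated libraries were all higher, here with replicate 4 in the middle (log2 fold change 1.76 ± 0.33, edgeR adjusted p = 0.00360).

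The UNC13 genes moved in opposite directions. UNC13D, which primes lytic granules of lymphocytes, gave 103, 95.6 and 129 CPM in panobinostat against 160.1, 156 and 162 CPM in DMSO. All treated libraries were lower (log2 fold change −0.55 ± 0.11, edgeR adjusted p = 0.00436). UNC13A and UNC13B, which prime synaptic vesicles, rose by 0.69 ± 0.17 and 0.47 ± 0.08 on the log2 scale (edgeR adjusted p = 0.0102 and 0.00275), and UNC13A lost its call without panobinostat replicate 1 or DMSO replicate 1. UNC13A had 6.15, 5.86 and 5.55 CPM in panobinostat against 3.38, 3.83 and 3.87 CPM in DMSO. UNC13B had 80.9, 78.5 and 70.8 CPM in panobinostat against 55.4, 57.1 and 53.5 CPM in DMSO. Neither gene's groups overlapped, and both lay below UNC13D per kb in every library. Per kb, UNC13D supplied 46.3, 44.1 and 58.5% of the family of 8 in panobinostat against 76.3, 74.3 and 75.4% in DMSO, and RIMS3 27.6, 26.3 and 13.9% in panobinostat against 0.992, 0.794 and 0.846% in DMSO. The promoter of UNC13A (chr19:17688305-17688604, minus strand) is shown because it held matches to both arms of RE1, the element bound by the neuronal gene repressor REST: TTCAGCACC and GGACAGC, both read on the opposite strand of the printed sequence, 8 bases apart. Capitals mark these arms as well as 2 GC boxes and 1 TGACG core.
UNC13A: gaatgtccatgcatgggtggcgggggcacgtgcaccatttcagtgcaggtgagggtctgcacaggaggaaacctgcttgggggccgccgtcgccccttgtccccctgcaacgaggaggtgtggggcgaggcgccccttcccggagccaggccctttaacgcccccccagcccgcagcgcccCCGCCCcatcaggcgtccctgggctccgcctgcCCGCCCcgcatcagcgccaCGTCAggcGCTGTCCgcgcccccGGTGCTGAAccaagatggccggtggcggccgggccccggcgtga

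Among 14 tested syntaxin genes there were 6 rises and 2 falls, and 6 genes were not called. Called genes were 57.1%, near the 58.9% of all tested genes. The rises above 2-fold were in STX12 and STX7, SNAREs of recycling and late endosomes, and STX11, which serves granule release in lymphocytes. STX12 had 46.1, 53.5 and 40.6 CPM in panobinostat against 19.3, 19.6 and 21.7 CPM in DMSO. The treated libraries all lay clear of the controls, replicate 4 nearest (log2 fold change 1.21 ± 0.12, edgeR adjusted p = 0.000645). STX7 had 120.1, 121 and 81.9 CPM in panobinostat against 52.2, 51.1 and 47.5 CPM in DMSO, without overlap (log2 fold change 1.10 ± 0.15, edgeR adjusted p = 0.00128). STX11 had 5.89, 4.76 and 5.25 CPM in panobinostat against 2.28, 2.70 and 2.78 CPM in DMSO. Its 3 treated libraries lay close together, replicate 4 included (log2 fold change 1.08 ± 0.20, edgeR adjusted p = 0.00350). STX6, of the trans-Golgi network and endosomes, had 111, 113 and 83.1 CPM in panobinostat against 50.4, 53.1 and 55.7 CPM in DMSO, again without overlap (log2 fold change 0.95 ± 0.12, edgeR adjusted p = 0.00112). STX5, of the Golgi, and STX3, of the apical plasma membrane, rose by 0.46 ± 0.11 and 0.28 ± 0.09 on the log2 scale (edgeR adjusted p = 0.00935 and 0.0217). STX3 lost its call without panobinostat replicate 1 or 2 or DMSO replicate 2 or 3. The promoter of STX12 (chr1:27772969-27773268, plus strand) holds a full cyclic AMP response element, TGACGTCA, which is shown for comparison with that of STXBP3 further on; capitals mark it with a further TGACG core and 4 GC boxes.
STX12: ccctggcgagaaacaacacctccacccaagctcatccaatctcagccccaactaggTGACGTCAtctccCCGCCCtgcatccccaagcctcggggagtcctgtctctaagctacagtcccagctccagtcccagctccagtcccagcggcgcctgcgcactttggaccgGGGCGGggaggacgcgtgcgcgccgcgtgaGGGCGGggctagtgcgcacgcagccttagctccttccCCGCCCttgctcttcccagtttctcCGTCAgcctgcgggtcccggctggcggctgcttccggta

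STX1A, the plasma membrane syntaxin of neurons and endocrine cells, fell, with 26.1, 24.9 and 31.9 CPM in panobinostat against 40.0, 41.9 and 37.9 CPM in DMSO. All treated libraries were lower (log2 fold change −0.53 ± 0.12, edgeR adjusted p = 0.00596). STX18, of the endoplasmic reticulum, fell to 40.9, 35.7 and 50.2 CPM in panobinostat against 60.9, 55.5 and 57.6 CPM in DMSO, without overlap (log2 fold change −0.45 ± 0.12, edgeR adjusted p = 0.0146), a call lost without DMSO replicate 1. The syntaxins not called were STX17 (0.17 ± 0.09), which acts at autophagosomes, STX10 (0.14 ± 0.08) and STX16 (−0.07 ± 0.09) of the trans-Golgi network, STX8 (0.03 ± 0.12) of late endosomes, and STX4 (0.05 ± 0.09) and STX2 (−0.03 ± 0.09) of the plasma membrane. STX4, the partner of SNAP23 in many non-neuronal cells, had 39.9, 39.7 and 46.2 CPM in panobinostat against 40.7, 41.4 and 39.5 CPM in DMSO, which are mixed. Without panobinostat replicate 4, STX10 was called higher (0.19).

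All 3 SNAP25-type SNAREs that could be tested rose, and SNAP25 itself could not be tested. SNAP23, the form of most non-neuronal cells, had 72.5, 74.1 and 54.7 CPM in panobinostat against 43.5, 37.6 and 39.6 CPM in DMSO, with no overlap (log2 fold change 0.74 ± 0.13, edgeR adjusted p = 0.00299). SNAP29, which joins autophagosomes to lysosomes, had the largest change of the 3, with 67.8, 67.6 and 51.0 CPM in panobinostat against 36.0, 34.8 and 32.6 CPM in DMSO. The treated libraries were all higher (log2 fold change 0.85 ± 0.12, edgeR adjusted p = 0.00164). SNAP47, a widely expressed relative, rose to 70.3, 69.6 and 49.0 CPM in panobinostat, against 44.5, 43.7 and 43.2 CPM in DMSO (log2 fold change 0.53 ± 0.14, edgeR adjusted p = 0.0120), and its call was lost without panobinostat replicate 1. The family summed to 33.6 ± 5.58 CPM per kb in panobinostat and 20.6 ± 0.846 CPM per kb in DMSO (SD, n = 3 each). The neuronal SNAP25 had 7 counts in panobinostat and 15 in DMSO, a ratio of 0.441 per total count with a 95% counting interval of 0.152 to 1.15.

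VAMP1 was the R-SNARE that changed most. It is a synaptobrevin of neurons and neuromuscular junctions, and had 22.6, 21.8 and 15.3 CPM in panobinostat against 7.52, 6.53 and 7.74 CPM in DMSO. Each treated library lay clear of every control (log2 fold change 1.46 ± 0.18, edgeR adjusted p = 0.000973, and 1.61 without panobinostat replicate 4). VAMP2, its close relative at most synapses, had 27.0, 26.5 and 28.3 CPM in panobinostat against 29.2, 34.5 and 34.7 CPM in DMSO, lower in all treated libraries but not called (log2 fold change −0.26 ± 0.10, edgeR adjusted p = 0.0650), though it was called lower without panobinostat replicate 4 or DMSO replicate 1. VAMP3, the R-SNARE of recycling endosomes, had 109.7, 110.0 and 85.9 CPM in panobinostat against 82.6, 72.4 and 80.3 CPM in DMSO. Replicate 4 was only just above the highest control (log2 fold change 0.38 ± 0.11, edgeR adjusted p = 0.0189), and the call was lost without panobinostat replicate 1 or 2 or DMSO replicate 2 or 3. VAMP4 (−0.06 ± 0.09), of the trans-Golgi network, and VAMP8 (−0.29 ± 0.14), of late endosomes and granules, were not called, but without panobinostat replicate 4 VAMP8 was called lower (−0.44). VAMP7, a lysosomal R-SNARE, was left out by the filter: it had 176, 5 and 13 counts in the panobinostat libraries and 10, 7 and 5 in the DMSO libraries. Panobinostat replicate 1 stands out most, at 11.5 CPM against 0.845, 0.993 and 0.774 CPM in DMSO. Replicate 2, at 0.915 CPM, lay among the controls, and replicate 4, at 1.95 CPM, lay above each of them. VAMP7 lies on both sex chromosomes, in a region they share, and the sources used here do not say how reads that match both copies were counted.

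The syntaxin-binding genes moved in opposite directions. STXBP3, the widely expressed Munc18c that pairs with STX4, fell to 28.6, 26.5 and 31.8 CPM in panobinostat against 46.2, 45.3 and 43.5 CPM in DMSO. Its treated libraries all lay well below the controls (log2 fold change −0.63 ± 0.10, edgeR adjusted p = 0.00186). STXBP2, which pairs with STX11 in cytotoxic cells, fell by less, with 17.55, 17.03 and 20.70 CPM in panobinostat against 22.7, 22.8 and 22.7 CPM in DMSO (log2 fold change −0.31 ± 0.11, edgeR adjusted p = 0.0448). That call is near the threshold and was lost in the same 5 fits as that of SYT16. STXBP4, a STX4-binding protein, rose (0.61 ± 0.14, edgeR adjusted p = 0.00688), and STXBP5, the inhibitory tomosyn, was not called (−0.32 ± 0.13), though it was called lower without panobinostat replicate 4 (−0.32) or DMSO replicate 1. STXBP2 and its partner STX11 thus moved in opposite directions. The promoter of STXBP3 (chr1:108746424-108746723, plus strand) holds TGACGTCA, as does that of STX12, although STX12 rose and STXBP3 fell; capitals mark it with another TGACG core and 2 GC boxes.
STXBP3: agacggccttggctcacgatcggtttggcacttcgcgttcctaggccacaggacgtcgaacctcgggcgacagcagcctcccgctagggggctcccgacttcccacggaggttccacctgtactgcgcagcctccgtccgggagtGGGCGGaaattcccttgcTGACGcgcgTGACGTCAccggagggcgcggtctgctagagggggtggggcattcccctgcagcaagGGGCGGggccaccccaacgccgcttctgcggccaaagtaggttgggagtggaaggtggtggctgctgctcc

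**Figure D3:**
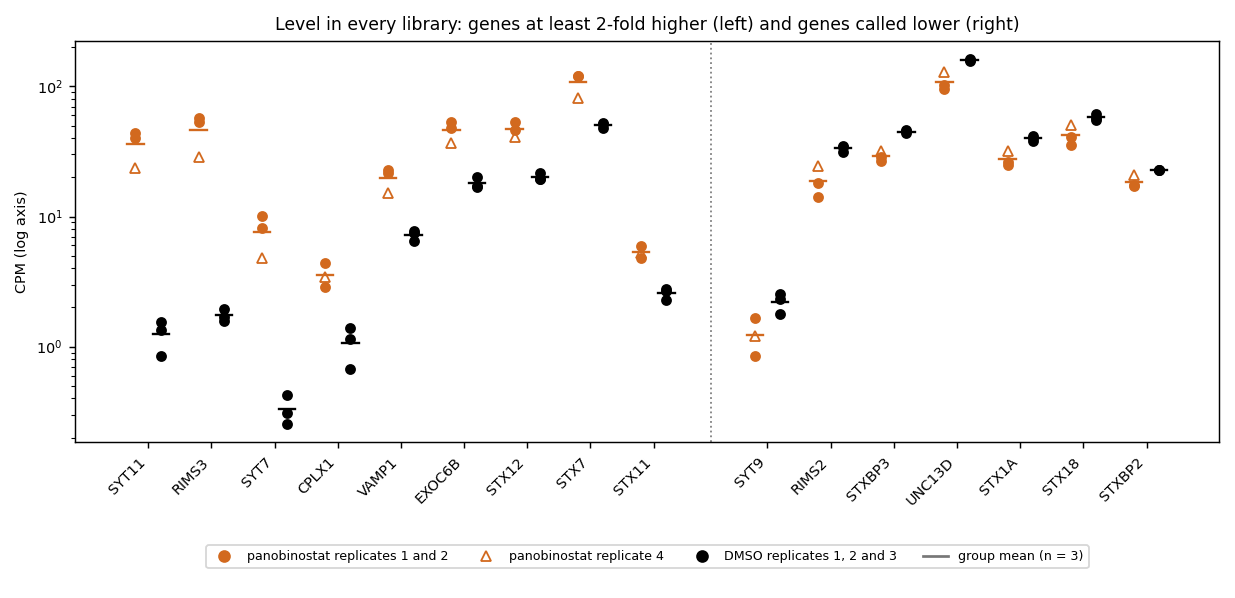
CPM (log axis) in every library for members at least 2-fold higher, left of the dotted line, and the 7 members called lower, right of it; each gene has panobinostat left of DMSO, a bar marks the group mean (n = 3) and an open triangle marks panobinostat replicate 4. In none of the genes shown do the groups overlap, and the triangle is usually the treated library nearest to DMSO.

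The exocyst counts depended on panobinostat replicate 4 and on the fit used. Of the 9 tested protein-coding genes, 3 rose, 0 fell and 6 were not called, 33.3% called against 58.9% of all tested genes. Without panobinostat replicate 4, 3 rose, 2 fell (EXOC4 and EXOC6) and 4 were not called, and library quality weights also called both lower. The replicate block called both lower too, but its effect rests on replicates 1 and 2 alone, so it also sets panobinostat replicate 4 aside. DESeq2 called 0 lower, while limma-voom and edgeR with no filter called EXOC6 lower but not EXOC4. EXOC6 alone had an unadjusted edgeR p under 0.05 among those that lay lower. EXOC6B, a paralogue of the subunit gene EXOC6, rose to 53.0, 48.0 and 36.6 CPM in panobinostat, against 20.3, 17.3 and 16.9 CPM in DMSO. No library of the groups overlapped (log2 fold change 1.34 ± 0.16, edgeR adjusted p = 0.000834, and 1.47 without panobinostat replicate 4), whereas EXOC6 was not called (−0.29 ± 0.12) and was called lower without that replicate (−0.43). EXOC8 and EXOC1, subunits of the complex, rose by 0.62 ± 0.10 and 0.51 ± 0.08 on the log2 scale (edgeR adjusted p = 0.00210 and 0.00240). EXOC1 had 83.7, 86.6 and 76.3 CPM in panobinostat against 60.8, 54.1 and 58.3 CPM in DMSO, and EXOC8 55.0, 54.7 and 48.7 CPM in panobinostat against 32.3, 37.5 and 33.9 CPM in DMSO, with no overlap in either. EXOC5, another subunit, had 202, 206 and 203 CPM in panobinostat against 203, 212 and 198 CPM in DMSO. These values are mixed (log2 fold change 0.00 ± 0.06). EXOC2 (0.02 ± 0.08), EXOC3 (0.09 ± 0.07), EXOC7 (−0.05 ± 0.07) and EXOC4 (−0.27 ± 0.12, and −0.38 without panobinostat replicate 4) were not called either.

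Per kb of exon, the 4 highest members in both groups were STX10, VAMP8, VAMP3 and STX5, SNAREs of the Golgi and endosomes. STX10 averaged 41.7 ± 2.09 CPM per kb in panobinostat and 37.9 ± 1.49 CPM per kb in DMSO (SD, n = 3 each, as for the other averages), and VAMP8 30.1 ± 5.62 CPM per kb in panobinostat and 36.8 ± 2.30 CPM per kb in DMSO. VAMP3 averaged 36.9 ± 5.00 CPM per kb in panobinostat and 28.4 ± 1.95 CPM per kb in DMSO, and STX5 39.0 ± 5.07 CPM per kb in panobinostat and 28.4 ± 2.33 CPM per kb in DMSO. Next in DMSO came UNC13D, with 14.1 ± 2.26 CPM per kb in panobinostat and 20.6 ± 0.393 CPM per kb in DMSO. In DMSO, VAMP8 and STX10 lay within their spreads of each other, as did VAMP3 and STX5. The largest rises did not reach this range. SYT11 averaged 6.84 ± 2.04 CPM per kb in panobinostat and 0.239 ± 0.0685 CPM per kb in DMSO, RIMS3 6.41 ± 2.14 CPM per kb in panobinostat and 0.240 ± 0.0267 CPM per kb in DMSO and SYT7 1.29 ± 0.448 CPM per kb in panobinostat and 0.0554 ± 0.0148 CPM per kb in DMSO. The summed families were near equal between the groups for the priming factors, with 28.3 ± 0.342 CPM per kb in panobinostat and 27.3 ± 0.392 CPM per kb in DMSO, and for the VAMPs, with 91.0 ± 2.93 CPM per kb in panobinostat and 86.4 ± 3.39 CPM per kb in DMSO. For the syntaxins the sums were 188 ± 11.0 CPM per kb in panobinostat and 158 ± 1.07 CPM per kb in DMSO and for the exocyst 92.4 ± 3.05 CPM per kb in panobinostat and 82.1 ± 0.776 CPM per kb in DMSO.

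The 23 protein-coding members left out by the filter include all synapsins and SV2 genes, which coat or span synaptic vesicles. None of the 3 synapsins and 3 SV2 genes could be tested, and SYN3 and SV2C had 0 counts in all 6 libraries. For the others, counts were summed over the 3 libraries of a group and set against their totals, with 95% exact intervals that cover counting error only. SYT5, a calcium-binding synaptotagmin, had 23 counts in panobinostat and 1 in DMSO, a ratio of 21.7 (3.53 to 895). EXOC3L4 and EXOC3L1, relatives of EXOC3, had 35 counts in panobinostat against 3 in DMSO (ratio 11.0, 3.48 to 56.0) and 60 in panobinostat against 12 in DMSO (ratio 4.72, 2.52 to 9.65). SYT12 had 56 counts in panobinostat against 15 in DMSO (ratio 3.53, 1.97 to 6.72), SYN2 20 in panobinostat against 4 in DMSO (ratio 4.72, 1.58 to 19.0), SYT13 9 in panobinostat against 1 in DMSO (ratio 8.50, 1.18 to 373), STXBP6 16 in panobinostat against 4 in DMSO (ratio 3.78, 1.22 to 15.5) and STXBP5L 16 in panobinostat against 5 in DMSO (ratio 3.02, 1.06 to 10.6). For these 8 genes the interval lies above 1. With no filter, edgeR called 5 of the 27 untested members, all higher: SYT5, EXOC3L4, EXOC3L1, SYT12 and SYN2. The intervals of SYN1 (11 counts in panobinostat against 3 in DMSO), SYT2 (21 in panobinostat against 17 in DMSO), SYT15 (18 in panobinostat against 16 in DMSO), VAMP5 (4 in panobinostat against 4 in DMSO) and STX19 (1 in panobinostat against 1 in DMSO) included 1, so a change in these was not detectable at this depth. SYT15 has a near-identical copy in the genome, which makes its counts uncertain. SV2A (5 counts), SYT14 (5), CPLX2 (3) and SV2B (3) had counts only in panobinostat, and SYT8 (4) only in DMSO. A difference in these 5 genes was not detectable at this depth.

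The 6 long non-coding members are named after protein-coding genes that they overlap or neighbour. STX18-IT1 lies inside STX18, and the readthrough transcript STX16-NPEPL1 spans STX16. EXOC3-AS1 rose (13.2, 13.2 and 11.2 CPM in panobinostat against 6.42, 8.66 and 8.05 CPM in DMSO, log2 fold change 0.72 ± 0.16, edgeR adjusted p = 0.00659), while EXOC3 was not called. STX18-AS1 was not called (−0.04 ± 0.22) while STX18 fell. STXBP5-AS1, STX16-NPEPL1, SNAP25-AS1 and STX18-IT1 were too low to test, with 15, 6, 1 and 0 counts in panobinostat and 27, 9, 0 and 1 in DMSO. Whether the counting used strand is not stated in any source used here, so these and the genes they overlap are uncertain.

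Promoter windows of RefSeq were at hand for 56 of the 72 protein-coding members. They held a median of 26 CpG dinucleotides in 300 bases, against 27 in the windows of the 9822 tested genes that matched by symbol. The sets are unlike in that 16 of the members' windows belong to members that could not be tested, SYN1 among them. The GC box GGGCGG, searched on both strands, was present in 73.2% of the members' windows and in 71.0% of those of tested genes. The TGACG core, which overlaps the full element, was present in 33.9% and 34.6%, and TGACGTCA itself in 3 members (STX12, STXBP3 and SYN1) and 3.28% of tested genes. TTCAGCACC was found in UNC13A and SYN1 and in 0.255% of tested genes, and GGACAGC in UNC13A and EXOC3 and in 6.58%. The median CpG number was 24 in the 18 windows of members called higher, 34 in the 5 called lower and 24 in the 17 not called. A match describes these letters only and is not a shown binding site.

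Related genes outside the rule were read from lists of known function, also chosen with earlier results of these data known. RAB3 and RAB27 GTPases, which lead vesicles to release sites, and active zone scaffolds gave 12 rises and 3 falls among 21 tested, against 30.2% higher and 28.6% lower over all tested genes, with a median log2 fold change of 0.47. RAB3A (3.27 ± 0.29), RAB3D (3.07 ± 0.34) and the liprin gene PPFIA4 (2.87 ± 0.30) rose most, and RAB27B (−0.62 ± 0.16), RAB27A (−0.60 ± 0.13) and RAB3GAP1 (−0.49 ± 0.10) fell. Of the 12 rises, PPFIA4, RAB3B, BSN and LIN7A passed the filter only through panobinostat, so the filter favoured a rise in them. The same holds for ESYT3, SCG2 and RCOR2 in the lists that follow. PPFIA2 passed in the same way and was not called (0.47 ± 0.34). The rises of ERC1, LIN7B and LIN7C were called in only 13, 11 and 9 of 16 settings. RAB3A had 23.9, 21.1 and 13.2 CPM in panobinostat against 2.37, 1.99 and 1.55 CPM in DMSO, and RAB27B 35.4, 37.2 and 54.6 CPM in panobinostat against 65.4, 63.2 and 66.4 CPM in DMSO, without overlap in either. Other C2 domain factors gave 7 rises and 1 fall among 12, or 58.3% and 8.33%, against 30.2% and 28.6% of all tested genes. ESYT3 (2.45 ± 0.40) and the RAB27 partners SYTL2 (2.16 ± 0.21) and SYTL3 (1.18 ± 0.18) led the rises, and the ferlin MYOF (−0.63 ± 0.12) was lower. The rises of SYTL1 and DYSF were called in only 11 and 9 of 16 settings. Of 25 listed vesicle membrane and dense core cargo genes, 17 had counts and only 8 could be tested. Among these 8 there were 6 rises and 1 fall, or 75.0% and 12.5%, against 30.2% and 28.6% of all tested genes. The rise of CPE was called in only 11 of 16 settings, and its groups overlapped. The granin SCG2 (2.56 ± 0.32), the synaptic vesicle protein SYP (2.23 ± 0.30) and the proton pump subunit ATP6V0A1 (1.21 ± 0.14) rose, SYPL1 (−0.41 ± 0.08) fell, and 9 further genes of the list were too low to test.

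Genes of general trafficking moved both ways. Of 12 other SNAREs, 5 rose and 3 fell, or 41.7% and 25.0%, against 30.2% and 28.6% of all tested genes. YKT6 (0.56 ± 0.10), SEC22B (0.54 ± 0.09) and VTI1A (0.46 ± 0.09) led the rises, and USE1 (−1.02 ± 0.19), BNIP1 (−1.01 ± 0.29) and GOSR1 (−0.74 ± 0.13) fell. The rises of BET1L and SEC22A were called in only 13 and 9 of 16 settings, and the fall of BNIP1 in 13. USE1, BNIP1 and SEC22B act with STX18 at the endoplasmic reticulum, where STX18 fell with USE1 and BNIP1 while SEC22B rose. Of 19 subunits of other tethering complexes, 7 rose and 5 fell, or 36.8% and 26.3%, against the same shares. VPS53 (0.77 ± 0.11), COG5 (0.70 ± 0.10) and COG2 (0.68 ± 0.11) were highest and VPS54 (−0.75 ± 0.14), TGFBRAP1 (−0.65 ± 0.12) and VPS51 (−0.44 ± 0.07) lowest. The rise of VPS16 was called in only 12 of 16 settings, and the falls of VPS50 and COG1 in 11 and 9. Among 5 other Sec1/Munc18 genes VPS33B (0.61 ± 0.15) rose and VPS33A (−0.56 ± 0.10) fell. NAPB (0.62 ± 0.11) and NAPA (0.37 ± 0.12, called in 10 of 16 settings), adaptors that let SNARE bundles be taken apart again, rose. They were 66.7% of the 3 tested, against 30.2% of all tested genes. REST itself was not called (−0.13 ± 0.10), though it was called lower without panobinostat replicate 4 (−0.23). Of 8 genes of its complex 3 rose, or 37.5%, against 30.2% of all tested genes. These were RCOR2 (2.86 ± 0.40), KDM1A (0.34 ± 0.07) and HDAC1 (0.21 ± 0.07, called in 9 of 16 settings). RCOR3 (−0.45 ± 0.10) fell, or 12.5% against 28.6%.

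**Figure D4:**
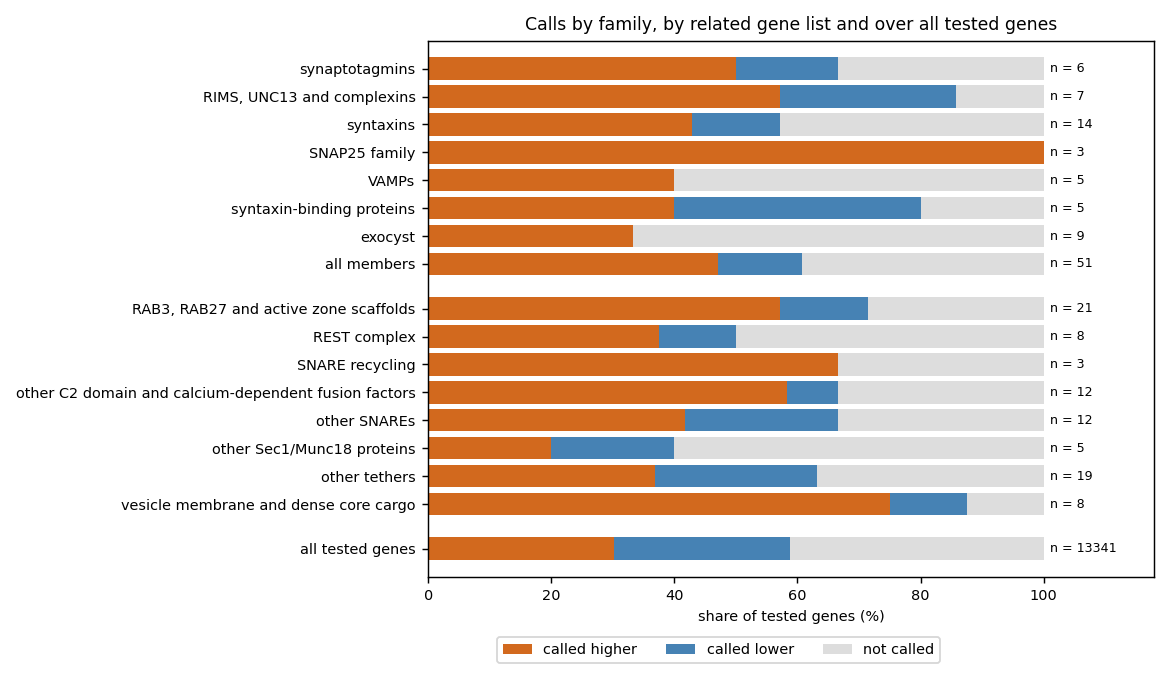
Share of tested genes (x axis, percent; n at the right) called higher (orange), lower (blue) or not called (grey) in each family of protein-coding members, in all 51 tested members, in the related lists and over all 13341 tested genes. Called genes were 33.3% of the 9 exocyst genes and 57.1% of the 14 syntaxin genes, against 58.9% over all genes.

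The authors' deposited table gives the same sign for all 31 called members, and an adjusted p under 0.05 for 27 of them. For the largest rises its log2 fold changes are smaller, at 2.53 for SYT11, 2.42 for RIMS3 and 2.41 for SYT7. The sources used here do not say which libraries entered that table.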

How the data were processed

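RNA was measured by RNA-seq in MDA-MB-231 cells, in 3 panobinostat and 3 DMSO libraries. The authors deposited a table of raw counts per gene (featureCounts, per the file name) beside the columns of their own comparison, which hold log2 fold changes and p-values; FastQC and the build GRCh38.p14 are named, per the submitters' processing notes. The sources used here name no aligner, annotation or strand setting. The kit marks strand, per the labels' protocols.

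Counts were keyed by the identifier of the counting and joined to symbols through the row whose second identifier equals it, since those columns run side by side in only the first 61 lines and 148 lines repeat an identifier. The deposited sum column totals 76184320 counts against 52742848 in the 6 libraries, so it covers more than these. Totals per library were 5389638 to 15106148 counts, which limits the precision of genes with few counts. Counts without molecular identifiers mean that intervals and floors cover counting error only.

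Genes were filtered with filterByExpr (minimum count 10, here about 1.46 CPM in 3 libraries), scaled by TMM and fitted over 13341 genes in edgeR 4.0.16 (R 4.3.3) by its quasi-likelihood test, with Benjamini-Hochberg adjustment over all of them. Alternatives used limma 3.58.1, DESeq2 1.42.0, other scalings and filters, a replicate block and each library left out. The fit was checked on simulated data. Levels per kb use exon lengths of the reference annotation, and promoter windows are RefSeq's for GRCh38.p14. Members and lists were chosen with earlier results of these data known. Full values are given for members called at 2-fold or more, for the largest rise and fall and the highest mean CPM in each family, and for members whose call rests on 1 library; from each related list, up to 3 called genes in each direction are named. The values in every library of further members were added after their values were seen. Some genes are not reported here and are left out of the text and the plots of single genes, but they enter the counts.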

Additional observations from a re-analysis of the deposited data

How the results depend on the processing

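Over 15 alternatives, 23 of the 31 called members kept their call in each and 8 lost it in at least 1: SNAP47, STX18, STX3, STXBP2, SYT16, SYT9, UNC13A and VAMP3. None of the 31 called members turned direction; the fitted sign of some uncalled members near 0 did, such as SYT1 and STX4 without panobinostat replicate 4. With no filter or with DESeq2, STX3, STXBP2, SYT16, SYT9 and UNC13A were not called, and STXBP2 was not called with upper-quartile or library-size scaling. Members called lower numbered 7, against 12 with library quality weights in limma-voom and 11 with the replicate block. Leaving out 1 library at a time gave 19 to 25 members higher and 5 to 12 lower, and 3105 to 5024 of all genes higher and 2660 to 4969 lower, against 4032 and 3821 with all 6. The highest of each range came without panobinostat replicate 4, when all 31 called members kept their call and EXOC4, EXOC6, STXBP5, VAMP2 and VAMP8 (lower) and STX10 (higher) joined them.

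The groups share only numbers 1 and 2, and the deviations of libraries with the same number correlated at 0.054 and 0.0084, so the numbers were not taken as pairs. The replicate block gave 25 members higher and 11 lower. Panobinostat replicate 4 and DMSO replicate 3 are each alone in their block and add nothing to its effect, so it is no check on all 6 libraries. Depth limits the 27 untested members, of which 5 were called higher with no filter.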

Other observations

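NSF, the ATPase that takes SNARE bundles apart after fusion, had 0, 28 and 0 counts in panobinostat replicates 1, 2 and 4 and 1, 0 and 0 counts in DMSO replicates 1, 2 and 3. VPS52, a subunit shared by the GARP and EARP tethers, had 0 counts in each panobinostat library and 0, 0 and 1 in DMSO. Both genes thus had almost no counts in the 6 libraries, apart from NSF in panobinostat replicate 2. How reads from these genes were counted was not tested.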
